A study of Drosophila melanogaster with 3 samples.

Results

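The 10 genes described here are the core genes of Dpp and bone morphogenetic protein (BMP) signalling in *Drosophila melanogaster*: *dpp*, *gbb*, *tkv*, *sax*, *put*, *Mad*, *Med*, *Dad*, *brk* and *shn*. They were selected by name from the pathway, as 10 of the 13945 protein-coding genes on the 6 chromosome arms analysed. Binding was measured for CG13894, a protein known by its gene number, by chromatin immunoprecipitation and sequencing (ChIP-seq). The material was whole embryos, 2 to 24 h old, of a transgenic line that stably carries CG13894 fused at its C-terminal end to green fluorescent protein (GFP), and chromatin was precipitated through the GFP. The 3 biological replicates of this line formed the only group; the control library named in the labels is not used here. Whole embryos mix all cell types and stages, so a summit cannot be assigned to a tissue. The strongest summit of the whole list (signal 36459) lay in the window of *CG13894* itself, which held 14 summits.

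Each deposited list gives peaks on the dm6 assembly, and the summit of a peak is its point of highest enrichment. The thresholded list holds 7434 peaks that repeated between replicates by the irreproducible discovery rate, and ranks below run from 1, the strongest by the authors' signal value, to 7434. The pooled list, called on the 3 replicates together, and each replicate list hold 30000 peaks. No list gives read counts, so depth is unknown, and a missing peak is not a missing protein. Replicate ranks are not independent of the thresholded list, which was made from the same libraries. A gene's window is its annotated span with 5 kb to each side, and overlapping peaks count as 1 region. A start site is called bound where a summit lies within 500 bp of it.

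Dpp is a secreted growth factor of the BMP family and patterns the dorsal side of the embryo, the gut and the appendages; Gbb is a second BMP ligand. Ligands bring together a type II receptor, Punt, and a type I receptor, Thickveins or Saxophone, which phosphorylates the Smad protein Mad. Mad enters the nucleus with the common Smad Medea and acts on target genes. Schnurri, a large zinc-finger protein, joins them to silence *brk*, whose product Brinker represses Dpp targets, and Dad, an inhibitory Smad induced by the pathway, damps the signal.

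The sequences below show the strongest thresholded summit in the windows of 5 of the genes, so that the contrast between summits in a gene and summits at a neighbour can be read. All are the plus strand of dm6 (RefSeq copy of Release 6), 5′ to 3′, and centred on the summit. Capitals mark the summit base with 2 bases to either side, except in *Dad*, where they mark a GAGAGA repeat unit. The *tkv* window is chr2L:5227375-5227475 in an intron of *tkv*, and that of *Dad* is chr3R:17065398-17065498 in an intron of *Dad*. The *brk* window is chrX:7307091-7307191, upstream of *brk* and in an intron of the overlapping gene *CG1677*. The *Mad* window is chr2L:3144832-3144932 at the start site of the neighbour *toc*, and the *Med* window is chr3R:31616163-31616213 at the start site of the neighbour *Mnat9*.
tkv: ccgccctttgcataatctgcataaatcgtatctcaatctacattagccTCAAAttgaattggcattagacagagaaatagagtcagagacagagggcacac
Dad: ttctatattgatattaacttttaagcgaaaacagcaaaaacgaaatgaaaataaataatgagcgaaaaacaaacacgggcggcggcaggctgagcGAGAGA
brk: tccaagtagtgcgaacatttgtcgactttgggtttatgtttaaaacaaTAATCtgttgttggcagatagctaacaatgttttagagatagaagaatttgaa
Mad: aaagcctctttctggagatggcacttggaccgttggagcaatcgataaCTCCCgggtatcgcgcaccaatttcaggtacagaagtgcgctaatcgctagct
Med: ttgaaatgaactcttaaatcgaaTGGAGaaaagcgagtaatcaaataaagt

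CG13894 summits at the pathway's genes were concentrated in 3 of them. The windows held 46 thresholded summits in 41 distinct regions, and 31 of the 41 regions (75.6%) were at *shn*, *tkv* and *Dad*. The windows of these 3 genes were also long, at 68309, 62385 and 26402 bp of the 291.6 kb in all 10 windows. The other 7 genes had a median of 1 region, and *put* had 0. By region count, 31 lay in the gene itself or within 500 bp of one of its own transcription start sites (TSSs), and 10 lay elsewhere in the flanks. At least 1 summit was present in the windows of 9 of the 10 genes, against 52.4% of all protein-coding genes by the same rule. For *gbb*, *Mad*, *Med* and *brk* this rested on flanking summits away from their own TSSs, and without the flanks 4 genes had a summit (*dpp*, *tkv*, *Dad* and *shn*). The 7434 strongest peaks of each replicate gave 40, 39 and 41 regions in the windows (40 ± 1.00, SD, n = 3) and 8 genes with a summit in each replicate. When a summit had to be among the strongest peaks of both other replicates, 24 regions were left without replicate 1, 29 without replicate 2 and 25 without replicate 3.

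**Figure D1:**
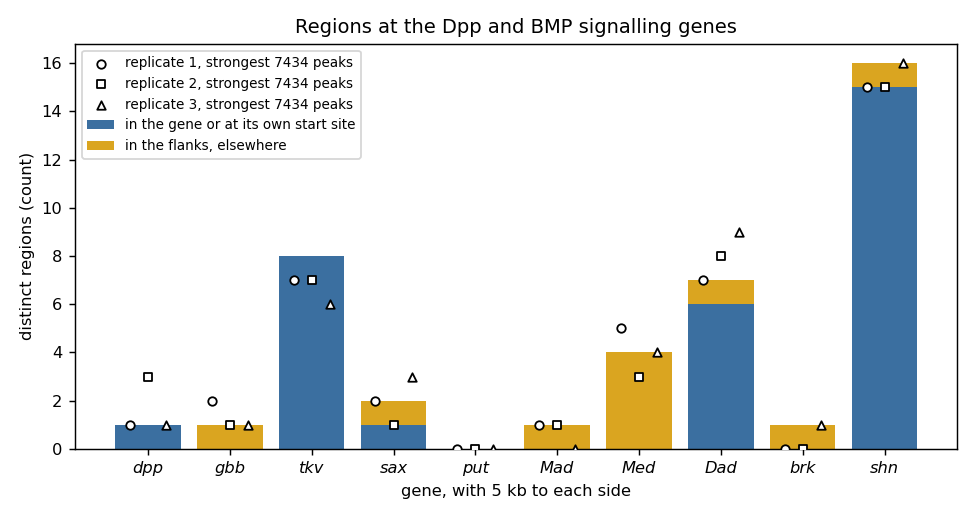
Number of distinct regions in each gene's window (gene with 5 kb to each side): bars show the thresholded list, divided into regions in the gene or at its own start site and regions elsewhere in the flanks, and open symbols show the strongest 7434 peaks of each replicate. *shn* has 16 regions, *tkv* 8 and *Dad* 7, and *put* has 0.

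Of the ligand genes, *dpp* carried a summit at its own start site and *gbb* did not. *dpp* (FBgn0000490) lies on 2L from 2428372 to 2459823 on the plus strand and has 4 annotated TSSs. Its only thresholded summit, at 2428699, was 327 bp downstream of the first TSS, inside the annotated 5′ UTR, with a signal of 592 and rank 1267. The same site had signals of 225, 152 and 215 and ranks of 1504, 1955 and 896 in replicates 1, 2 and 3, so it stood among the strongest peaks of each. The other 3 TSSs, 21821 to 26365 bp further into the gene, had no thresholded summit within 13 kb. At the TSS at 2451229, replicate 2 alone had one of its strongest peaks (signal 83.1, rank 6186), replicate 1 listed a weaker one (signal 48.5, rank 17392), and replicate 3 listed none within 500 bp.

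*gbb* (FBgn0024234; 2R, 23851562 to 23853247, plus strand) had the highest-ranked summit of all the windows, but it was not at *gbb*. The summit at 23850400 lay 1162 bp from the *gbb* TSS, 99 bp upstream of the TSS of the translation factor gene *eIF6* and 70 bp downstream of that of *asRNA:CR45928*, inside the overlapping gene *ytr*. Its signal was 2646, 7.83 times the median of the list, at rank 59. The replicates gave signals of 1123, 816 and 732 at ranks 54, 56 and 68. Nearer to *gbb* itself, the pooled list held a weak summit 391 bp from the TSS (signal 173, rank 10059), below the threshold, at ranks 8599, 10033 and 20851 in the replicates.

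The 3 receptor genes had different patterns. *tkv* (FBgn0003716; 2L, 5219000 to 5271384, minus strand) encodes the main type I receptor for Dpp, and all 8 of its regions lay inside the gene, none within 500 bp of its 4 TSSs. The strongest, at 5227425, was 43959 bp from the gene's 5′ end in an intron and 9171 bp from the nearest TSS, that of *TpnC25D*. Its signal was 822 (rank 630), with signals of 363, 238 and 226 and ranks of 560, 737 and 810 in replicates 1, 2 and 3. The other 7 *tkv* summits ranked 3658 to 7391, and 3 of them, at 5228903, 5229904 and 5230118, followed within 3 kb of the strongest. The summit at 5259686 also lay in *lncRNA:CR44744*, a noncoding gene that overlaps *tkv*. Of the 8 summits, 4 lay inside one of the strongest peaks of each of the 3 replicates, and all 8 were listed in each at some rank. Just below the threshold, pooled summits at 5237666 (rank 7804) and 5242501 (rank 7991) lay 304 and 119 bp from *tkv* TSSs, and replicate 2 had both among its strongest peaks, at ranks 4749 and 6606.

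*sax* and *put* had little or nothing of their own. *sax* (FBgn0003317; 2R, 7806484 to 7810067, plus strand), which encodes a second type I receptor, had a weak summit at 7806424 in the 5′ intergenic stretch that it shares with *Nop17l*, 60 bp upstream of *sax* and 39 bp upstream of *Nop17l*. Its signal was 231 (rank 6790), with signals of 106, 44.7 and 81.9 and ranks of 6194, 14796 and 5924 in the replicates. A stronger summit in the window, at 7812428 (signal 441, rank 2261), lay 76 bp upstream of *puml*, 5831 bp from the nearest *sax* TSS. *put* (FBgn0003169; 3R, 14619030 to 14625703, minus strand), the type II receptor gene, had 0 thresholded summits. A pooled summit 61 bp from its TSS had a signal of 96.0 and rank 19373, and the neighbour *His4r* had the nearer TSS. The replicates listed a peak within 500 bp of the *put* TSS at ranks 20255, 24988 and 7819, so none was among the strongest 7434 of any replicate.

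**Figure D2:**
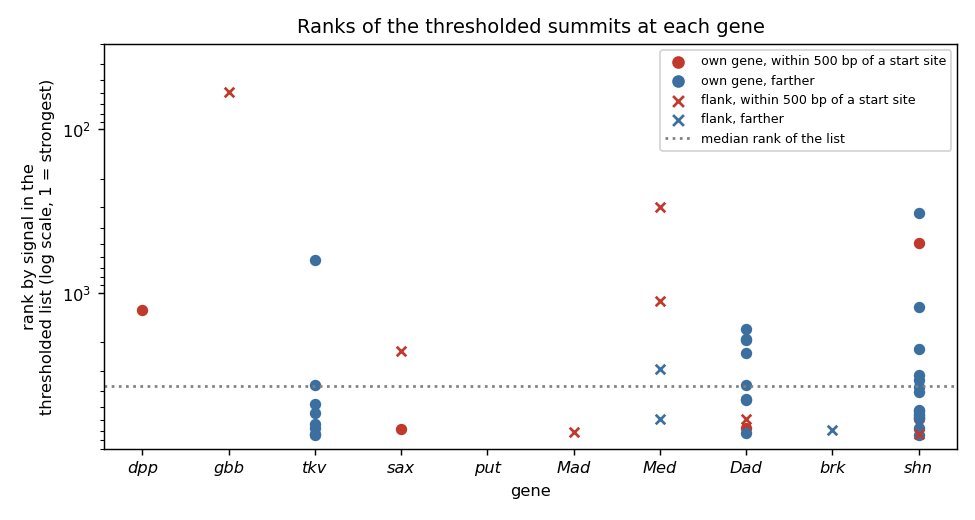
Rank by signal of each thresholded summit (log scale, strongest at the top) for the 10 genes; circles are summits in the gene or at its own start site, crosses are summits elsewhere in the flanks, red marks summits within 500 bp of any start site, and the dotted line is the list's median rank. The highest rank, 59, is a cross at *gbb*, and most circles of *shn* and *tkv* lie below the dotted line.

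Among the Smad genes, only the inhibitory one carried thresholded summits of its own. *Mad* (FBgn0011648; 2L, 3146056 to 3159643, minus strand) had 1 summit in its window, at 3144882, 96 bp upstream of the TSS of *toc* and 7871 bp from the nearest *Mad* TSS. It was weak, with a signal of 223 at rank 7090, and stood at ranks 8274, 5683 and 8762 in the replicates. A pooled summit 75 bp from the 5′ *Mad* TSS fell below the threshold (signal 168, rank 10384; replicate ranks 10648, 13824 and 12203). Another pooled summit, 706 bp from the second *Mad* TSS (rank 8508), was among the strongest peaks of replicate 1 (rank 7035) but not of replicates 2 and 3 (ranks 12684 and 12340).

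*Med* (FBgn0288966; 3R, 31611046 to 31615375, plus strand) is flanked by bound neighbours. All 4 regions of its window lay outside the gene. The strongest, at 31616188, was 28 bp upstream of a *Mnat9* TSS and 115 bp upstream of *CG1792*, with a signal of 1228 (rank 300) and replicate signals of 489, 367 and 393 (ranks 314, 310 and 257). Next was the start site of the cyclin gene *CycG*, with a summit 22 bp upstream at 31609837 (signal 628, rank 1116; replicate ranks 849, 1307 and 1157). The other summits, at 31608930 (rank 2933) and 31608176 (rank 5925), were in *CycG* introns. A pooled summit 112 bp from the *Med* TSS missed the thresholded list narrowly, at rank 7568 with a signal of 214. It was uneven between replicates, with signals of 115, 63.4 and 39.0 and ranks of 5501, 9338 and 16091.

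*Dad* (FBgn0020493; 3R, 17054007 to 17070408, plus strand) held 9 summits in 6 regions inside the gene, and its window 1 more, at 17072721 between *mRpS11* and *Ns1*. The *Dad* start site had a weak summit in the 5′ UTR just downstream of the first TSS, at 17054108 (signal 233, rank 6680). Its replicate signals were 115, 92.0 and 40.2, at ranks 5461, 5279 and 15606. Replicate 3 instead had one of its strongest peaks 427 bp from the TSS, at 17053580 (signal 79.1, rank 6269). The stronger *Dad* summits were intronic. The region with 3 summits at 17065172, 17065448 and 17065701, about 11 kb into the gene, had signals of 477, 515 and 302 (ranks 1911, 1658 and 4483). The strongest of these had replicate signals of 252, 117 and 112 at ranks 1180, 3398 and 3411. A summit at 17056433, 1536 bp downstream of the second TSS, had a signal of 474 and rank 1934. It stood at ranks 1886 and 1626 in replicates 1 and 2, and no replicate 3 peak contained that position. The last, at 17067988 (signal 434, rank 2332), was weaker in replicate 2, at ranks 2539, 13405 and 1499.

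*brk*, the repressor gene, and *shn*, the gene of the cofactor that silences it, had 1 and 16 regions. *brk* (FBgn0024250; X, 7307939 to 7311132, plus strand) had 1 thresholded summit, at 7307141, 798 bp upstream of its TSS, with a signal of 227 and rank 6952. It stood at ranks 9537 and 10884 in replicates 1 and 2 and was not listed in replicate 3, so it was among the strongest peaks of none. A pooled summit close by, at 7307346 (signal 161, rank 10986), stood at rank 18254 in replicate 1, was not listed in replicate 2, and stood at rank 4249 in replicate 3. Within 500 bp of the *brk* TSS, replicates 1 and 2 listed only weak peaks, at ranks 19051 and 20874, and replicate 3 listed none.

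*shn* (FBgn0003396; 2R, 11159086 to 11217394, plus strand) had 18 summits in 16 regions, 15 of them inside the gene. By number of regions it came 8th of the 13945 protein-coding genes (ties share the lowest place), with *tkv* 89th and *Dad* 122nd. That order favours long genes: by regions per 10 kb of window *shn* came 1038th, *tkv* 3147th and *Dad* 656th. Its strongest summit was intronic, at 11184538, 1314 bp downstream of the third of its 5 TSSs, with a signal of 1176 and rank 324. The replicates gave signals of 438, 311 and 440 at ranks 370, 443 and 197. The next, at 11173608, lay 195 bp upstream of the second TSS, with a signal of 931 and rank 496 (replicate signals 361, 273 and 279; ranks 568, 551 and 486). A weaker summit of the same region, 34 bp downstream of that TSS, ranked 5767. The third, at 11202641 in an intron, had a signal of 603 and rank 1223, and ranks of 1654, 1128 and 1029 in the replicates. The fifth TSS had a summit 21 bp downstream (signal 255, rank 5885). The first TSS, at the 5′ end of the gene, had its nearest summit 549 bp away, in a stretch that also belongs to *CG13229*. The fourth had only a pooled summit 40 bp away, at rank 7503, just below the threshold. Of the 18 summits, 9 lay inside one of the strongest peaks of each of the 3 replicates and 17 were listed in all 3.

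**Figure D3:**
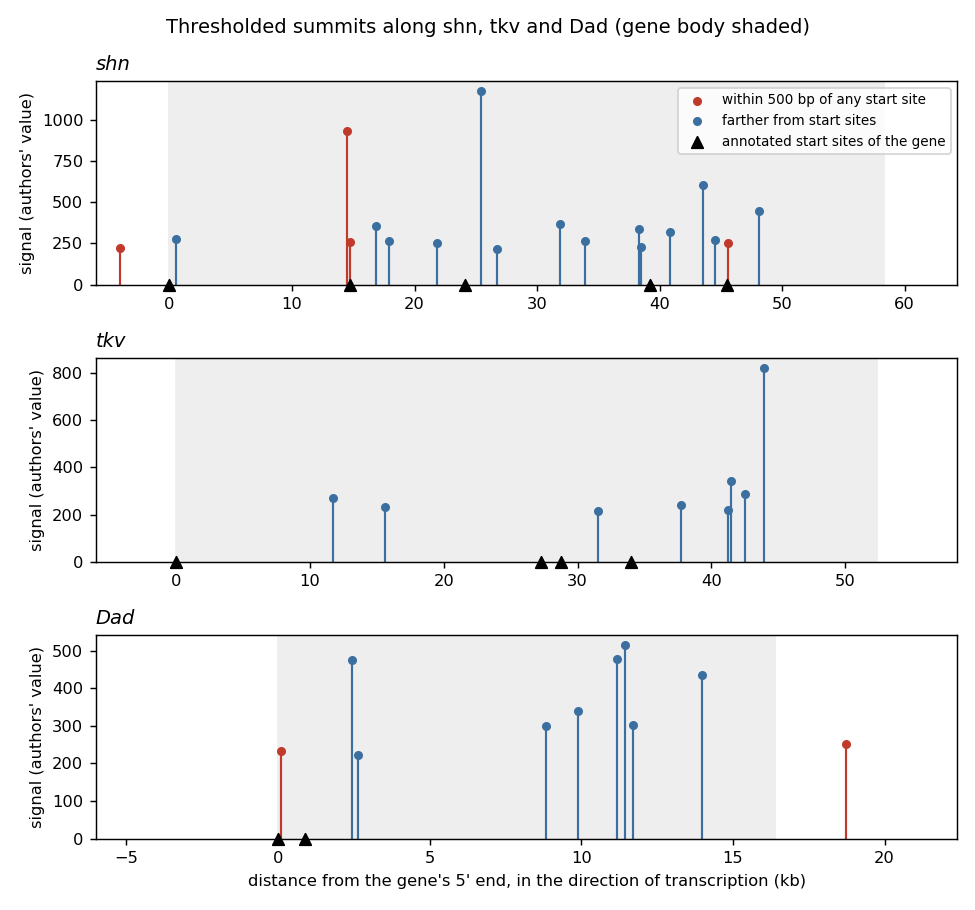
Signal of each thresholded summit (vertical axis, the authors' value) by distance from the gene's 5′ end in kb for *shn*, *tkv* and *Dad*; the shaded area is the gene, triangles are its annotated start sites, and red marks summits within 500 bp of any start site. The strongest summits of *shn* (signal 1176), *tkv* (822) and *Dad* (515) are all blue, away from start sites.

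At their own start sites, 4 of the 10 genes (*dpp*, *sax*, *Dad* and *shn*) had a thresholded summit within 500 bp, against 22.8% of all protein-coding genes. Of the 23 annotated TSSs of the 10 genes, 6 had such a summit. The share over all 23722 annotated TSSs is not given here, and 22.8% counts genes rather than TSSs. The strongest peaks of the replicates gave 5, 4 and 4 genes (4.33 ± 0.577, SD, n = 3), where 23.3%, 23.3% and 25% of protein-coding genes were bound. *dpp*, *Dad* and *shn* were bound in all 3 replicates, *sax* in replicates 1 and 3, *Med* in replicate 1 and *tkv* in replicate 2. Without replicate 1 the count fell to 2, *dpp* and *shn*. In the whole pooled list, which includes peaks that did not pass the threshold, 9 of the 10 genes had a summit at an own start site, all but *brk*, against 38.5% of protein-coding genes. Weak peaks at the start sites of *put*, *Mad*, *Med*, *gbb* and *tkv* thus accounted for the change from 4 to 9.

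The genes are longer than most, which bears on any count in a window. Their median length was 10131 bp against 2166 bp for all protein-coding genes. In the class of genes over 50 kb, which holds *tkv* and *shn*, 85.3% of 307 genes had a thresholded summit in the window, with a median of 3 regions and a 90th percentile of 10. *shn* with 16 lay above that percentile and *tkv* with 8 below it. Genes of 5 to 20 kb, the class of *Dad*, *Mad* and *put*, had a median of 1 region and a 90th percentile of 4, and *Dad* with 7 lay above it. *dpp*, with 1 region, lay under the median of 2 for genes of 20 to 50 kb. In this class 49.4% of genes were bound at an own TSS, against 17.2% of genes under 5 kb and 35.5% of those of 5 to 20 kb, so 4 of 10 is close to the shares of genes as long as these. Per 10 kb of window, the 10 genes had a median of 1.07 regions against 0.381 for all protein-coding genes. The medians of the length classes were 0 under 5 kb, a class with 4 of the 10 genes, 0.584 for 5 to 20 kb, 0.535 for 20 to 50 kb and 0.348 over 50 kb. *Med* had the most regions per 10 kb, 2.79, all of them outside the gene. *Dad* had 2.65, *shn* 2.34, *sax* 1.47, *tkv* 1.28, *gbb* 0.856, *brk* 0.758, *Mad* 0.424, *dpp* 0.241 and *put* 0. The regions of *gbb*, *brk* and *Mad* also lay in the flanks, away from their own TSSs.

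**Figure D4:**
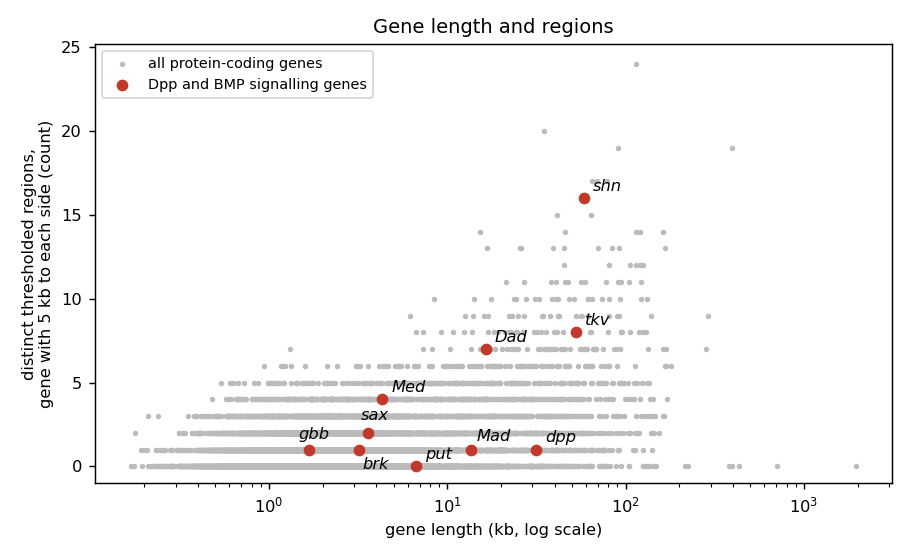
Number of distinct thresholded regions in the window (vertical axis) against gene length in kb (log scale) for all protein-coding genes (grey) and the 10 pathway genes (red). *shn* with 16 regions and *Dad* with 7 lie above the 90th percentile of their length classes (10 and 4), and *dpp* with 1 lies under the median of its class (2).

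By position, the 46 summits were mostly intronic. Introns held 32 of them (69.6%), against 37.7% of all 7434 thresholded summits, and 13 (28.3%) were within 500 bp of a TSS of any gene, against 43.6%. The excess in introns was that of 3 genes: 29 of the 32 lay inside *shn*, *tkv* or *Dad*. Most summits in the windows of the other genes were within 500 bp of a TSS. None of the 46 was classed as intergenic, against 15.2% of the list, in windows drawn around genes. The replicates' strongest peaks gave 29.7% ± 4.60 near a TSS (SD, n = 3). The remaining summit was the one in *lncRNA:CR44744*. None of the 46 was classed in coding or untranslated exons away from promoters, classes that hold few summits in the whole list (0.525% in coding exons). The share of intron in the windows was not measured. Of the 10 summits that were neither in the gene nor within 500 bp of its own TSSs, 7 were at start sites of neighbours.

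Most of the summits were of ordinary or low strength. Their median rank was 4665.5 against 3717.5 for the list, and their median signal was 295 against 338. These medians mostly reflect *shn*, *tkv* and *Dad*, which held most of the summits, with median ranks of 5248.5, 5899.5 and 4086. In the windows of the other genes, ranks ran from 59 at *gbb* to 7090 at *Mad*. Most of these were stronger than the list's median, and the weaker ones were at *sax*, *Mad*, *Med* and *brk*. The median ranks in the replicates' own strongest peaks were 4607, 4749 and 4418 (4591 ± 166, SD, n = 3). 5 summits ranked in the first 1000: those near *eIF6* and *Mnat9*, those of *shn* at 11184538 and 11173608, and that of *tkv* at 5227425.

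Among the strongest peaks of all 3 replicates stood 23 of the 46 summits (50%, 95% Wilson interval 36.1 to 63.9%, which covers counting error only), against 60.6% of the whole list. The interval treats the summits as independent. Most came from *shn*, *tkv* and *Dad*, and some shared a region, so it does not measure the spread between genes. For the summits of these windows in the stronger 50% of the list, the share was 84.2%. The same share for all summits in the stronger 50% is not given here, so no comparison is drawn. Another 17 of the 46 were among the strongest of 2 replicates, 5 of 1 and 1, that of *brk*, of none. With replicate peaks of any rank, 42 of the 46 (91.3%) were found in all 3, against 93.6% of the list. The 4 exceptions were *Dad* at 17056433 and 17065172, *brk* at 7307141 and *shn* at 11197366.

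**Figure D5:**
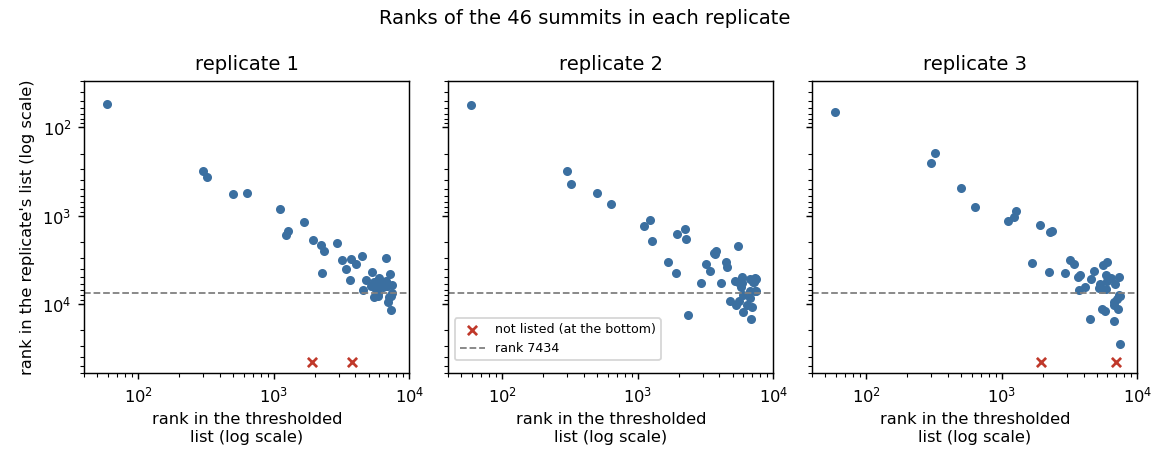
Rank of the 46 summits in each replicate's list (vertical axis, log scale) against their rank in the thresholded list (log scale); the dashed line is rank 7434, and red crosses are summits that no peak of that replicate contained. Summits in the first 1000 lie above the dashed line in all 3 replicates, while those of low rank scatter around it.

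The 200 bp around the summits were searched on both strands for 5 motifs. The DREF element TATCGATA was in 2 windows (4.35% against 3.19% of all thresholded windows), both at shared start sites: the summit near *eIF6* in the *gbb* window and that between *sax* and *Nop17l*. The core of motif 1, GGTCACAC, was in 2 (4.35% against 2.15%), at the *sax* and *puml* start sites. GAGAGA was in 4 (8.70% against 11.2%): the *Dad* summits at 17056433 and 17065448 and the *shn* summits at 11173608 and 11185839. CACACA, which can overlap the motif 1 core, was in 14 (30.4% against 21.6%), in the windows of *dpp*, *tkv*, *Med*, *Dad* and *shn*. Most of the 14 were at *shn* and *Dad*, and among the list's summits away from promoters the share was 24.1%. The silencer element bound by Mad, Medea and Schnurri was in none, against 0.148% of all thresholded windows. The median GC content was 44.5% against 43.5% in the list.

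Other genes of BMP and activin signalling, 41 in number, were examined in the same way. Of these, 25 (61.0%) had a thresholded summit in the window and 14 (34.1%) at an own TSS, against 52.4% and 22.8% of all protein-coding genes; their median length was 9643 bp, and among all genes of 5 to 20 kb the shares were 64.2% and 35.5%. The 12 genes of extracellular regulators had a median length of 17811 bp, and some were longer than 20 or 50 kb. Among all protein-coding genes, 49.4% of those of 20 to 50 kb and 48.2% of those over 50 kb were bound at an own TSS. Of the 12 genes, 7 were bound at an own TSS (58.3%). These were *sog*, whose product binds and transports Dpp (rank 1664), *cv* (820) and *cv-2* (1185), which encode BMP-binding proteins needed for crossveins, the glypican genes *dally* (2727) and *dlp* (2581), *magu* (5880) and *cmpy* (3955). Of these 7, *magu* and *cmpy* had no replicate 3 peak that contained the summit. *sog*, *cv* and *cv-2* stood at ranks 716 to 2341 in each replicate. *dlp* had 13 regions in its window, and its strongest, at rank 650, was 8531 bp from its nearest TSS.

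Differences between the groups of pathway genes, which hold 1 to 16 genes, were not tested. Of 5 other ligand genes, *mav* (rank 3832) and *myo* (4008) were bound at an own TSS. The receptor genes *wit* and *babo* and the Smad gene *Smox* had none in the thresholded list, and the strong summit in the *babo* window (rank 585) was at the start sites of *CG33199* and *CG8229*. Among 5 intracellular regulators, *Snoo* (6504), which encodes a Ski-family protein, and the kinase gene *nmo* (4261) were bound. *Snoo* also had an intronic summit at rank 118, 32686 bp from its nearest TSS, and its lowest rank in any replicate was 136. Of 16 genes regulated by the pathway, 3 were bound at an own TSS: *ush* (740), *tup* (5105) and *Ance* (918). *ush* had 15 regions in its window, and the strongest summit there, at rank 15, lay 1381 bp from the TSS of its neighbour *cbt*. The *bam* window held the start site of *RpS27* at rank 264. In all, 7 of the 16 had a thresholded summit in the window (43.8%), and *salm*, *salr*, *bi*, *vg*, *zen*, *Doc3*, *pnr*, *peb* and *C15* had 0. Some of the 41 genes without a thresholded summit at an own TSS had one of a replicate's strongest peaks within 500 bp of it. These were *salm* (replicate 1), *wit* and *tin* (replicates 1 and 3), *Actbeta* and *Smurf* (replicate 2) and *bam* (replicate 3).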

How the data were processed

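The authors deposited 5 narrowPeak lists on dm6: 3 single-replicate lists, a list for the pooled replicates, and the optimal list thresholded on the irreproducible discovery rate. The files' notes name a control alignment. Aligner, peak caller and threshold: not given in the sources used here. Per the labels, no scaling is recorded. The deposited signal value is the caller's own and differs in scale between lists, so signals were ranked within a list. The deposited −log10 q-value was not used. Depth is unknown.

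Coordinates are 1-based. Summits were peak start plus the deposited offset, kept inside the peak (5 changed, 0 of them at the 10 genes). Genes and TSSs came from Ensembl release 115 without transposons and pseudogenes. There were 17896 genes and 23722 TSSs in all, each position counted once for each gene that has it. Sequence came from the RefSeq copy of Release 6, in which 99.8% of 30593 start codons read ATG. Classes were assigned in the order promoter (500 bp), 5′ UTR, coding exon, 3′ UTR, intron or other transcribed, intergenic. A summit was found in a replicate when one of that replicate's 7434 strongest peaks contained it; printed signals and ranks come from the containing peak with the nearest summit in its list of 30000. Python 3.11.15, pandas 2.3.3, SciPy 1.17.1 and Matplotlib 3.10.9 were used, and counting was tested on artificial summits.

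The labels give 1 group, so no contrast was tested. The genes, lists and alternatives were chosen with earlier results of these data known. Named genes are the 10 members, the genes nearest to their summits, and the other pathway genes bound at an own TSS or with 1 of the 5 strongest summits. *wit*, *Smox*, *tin*, *Actbeta*, *Smurf* and the targets without summits were named after their values were seen.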

Additional observations from a re-analysis of the deposited data

How the results depend on the processing

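No paired analysis was possible because there was 1 group. The number of genes with a summit in the window was 7 to 10 under every alternative except without flanks (4), where only the gene span counts. The number of regions, 41 in the thresholded list, was 18 in the stronger 50% of the list and 91 in the whole pooled list, which differ in length by construction. It ranged from 24 to 29 with 1 replicate left out, where fewer summits qualify, and was 46 as summits and 44 as distinct intervals, the last chosen after seeing the data. Genes bound at an own TSS numbered 2 in the stronger 50%, 9 in the pooled list and 2 to 3 with 1 replicate left out. The share found in all 3 replicates, 50% in the thresholded list, was 84.2% in the stronger 50% and 21.6% in the pooled list, both without a list-wide share beside them. It was 37.0% where 50% of both peaks had to overlap, so it depends on how a match is defined. With peaks of any rank, also chosen after seeing the data, it was 91.3%. The share within 500 bp of a TSS was 34.9% in the strongest peaks of replicate 2, 14.3% without flanks and 43.5% at 1000 bp. The median rank was 1911 in the stronger 50%, 3181 to 3658 with 1 replicate left out and 4418 in replicate 3. Where the construction does not show it, the cause was not tested.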

Other observations

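The closest thresholded summit to *put* lay 9919 bp from the gene, nearest to the TSS of *CG14853*, at rank 7354. Over the whole windows of the 10 genes, the silencer element of Mad, Medea and Schnurri matched at 4 places, 1 each at *dpp*, *tkv*, *brk* and *shn* (13.7 per Mb, against 6.83 per Mb over the 6 arms). The match at *brk* (X, 7305763 to 7305777) was 2169 bp from the *brk* TSS, 1371 bp from the nearest thresholded summit and 294 bp from the nearest pooled one. None of the 4 was within 100 bp of a summit of either list. Overlap with the thresholded list was rare everywhere: of 913 matches over the 6 arms, few can overlap, as only 11 thresholded windows held the element. With 4 matches, the lack of overlap therefore cannot show whether CG13894 avoids the element at these genes.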
